A study of Homo sapiens with 24 samples.

Results

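The expression of 10 genes that encode NF-kB driven chemokines and cytokines, and of their feedback inhibitors, was followed in PEO1 and PEO4 ovarian cancer cells. The genes were CXCL1, CXCL2, CXCL3, CXCL8, CCL20, IL6, IL1A, IL1B, NFKBIA and TNFAIP3. They were chosen by name from both deposited count tables, where each had a row, so they are 10 of 28277 genes in each table. PEO1 and PEO4 are established cell lines of high-grade serous ovarian carcinoma and share a patient of origin; PEO1 represents the chemosensitive and PEO4 the resistant disease. RNA-seq was collected from 24 libraries in 8 groups of 3 replicates. The A table holds 6 untreated libraries, of PEO1 A (labelled WT for genotype, and BRCA2-deficient by the study's methods) and of PEO4 A (labelled WT). The B table holds 18 libraries, of PEO1 B (genotype BRCA2+, called PEO1 BRCA+ here, in which BRCA2 function came back by spontaneous reversion) and of PEO4 B (WT). Each B line was untreated or had 5 µM pyridostatin (PDS), a small molecule that binds and stabilises G-quadruplex DNA, in its medium for 2 or 6 h. A pyruvate supplement was added to the medium of the A cultures and not to that of the B cultures, and a directional poly(A) kit is given for the A libraries alone, so a difference between the tables cannot be told apart from culture and library preparation.

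NF-kB is a family of dimeric transcription factors, of which RELA and NFKB1 form the best known pair. In resting cells the dimers are held in the cytoplasm by IkB proteins. Signals from TNF, IL-1 or toll-like receptors lead to degradation of IkB, and the freed dimers enter the nucleus and bind kB sites near target genes. CXCL1, CXCL2, CXCL3 and CXCL8 encode chemokines that attract neutrophils through CXCR2 and, for CXCL8, CXCR1. CCL20 encodes the ligand of CCR6, which attracts lymphocytes and dendritic cells. IL6, IL1A and IL1B encode inflammatory cytokines. NFKBIA encodes IkB alpha, and TNFAIP3 encodes A20, a ubiquitin-editing enzyme that acts upstream of IkB degradation; both are targets of NF-kB that limit it. Ovarian carcinoma cells are known to secrete CXCL1, CXCL8 and IL6.

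The stretches upstream of the starts are shown first, because all but those of IL1A and IL1B held a match to a kB motif. The search used the RefSeq promoter windows of GRCh38.p14, from 250 bases before to 50 bases after each start, and all 10 genes were matched by symbol (IL1A has 2 windows). The kB consensus was found on either strand in 7 of the 10 windows, beside 5.91% of 35116 windows. The shorter motif GGANTTTCC, which overlaps the consensus where both occur apart from 1 further match in NFKBIA, was also found in 7 of 10, beside 1.64% of all windows. The 110 bases before the start in the window of each of the 8 genes with either motif follow, 5′ to 3′ on the gene's strand. For TNFAIP3 that start lies inside the gene's full span (chr6:137866349-137883312), so its stretch is within the gene. Each of the other stretches ends where its gene's span begins. Capitals mark the kB matches within the stretch, and where the consensus matched both strands the marked run is 1 base longer. Their positions are, in the same order, chr4:73869283-73869392 (plus strand), chr4:74099196-74099305 (minus strand), chr4:74038690-74038799 (minus strand), chr4:73740459-73740568 (plus strand), chr2:227813732-227813841 (plus strand), chr7:22727090-22727199 (plus strand), chr14:35404750-35404859 (minus strand) and chr6:137867149-137867258 (plus strand).
CXCL1: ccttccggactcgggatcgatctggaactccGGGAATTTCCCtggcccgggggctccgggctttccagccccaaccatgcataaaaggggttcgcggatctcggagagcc
CXCL2: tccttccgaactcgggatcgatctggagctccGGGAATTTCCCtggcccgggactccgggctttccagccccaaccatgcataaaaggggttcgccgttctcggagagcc
CXCL3: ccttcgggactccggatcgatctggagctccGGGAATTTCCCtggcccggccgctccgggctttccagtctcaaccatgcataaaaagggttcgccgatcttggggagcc
CXCL8: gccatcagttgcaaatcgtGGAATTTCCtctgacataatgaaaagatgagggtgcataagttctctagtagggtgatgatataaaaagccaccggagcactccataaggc
CCL20: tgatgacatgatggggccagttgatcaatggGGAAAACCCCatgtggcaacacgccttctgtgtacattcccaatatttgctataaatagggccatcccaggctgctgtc
IL6: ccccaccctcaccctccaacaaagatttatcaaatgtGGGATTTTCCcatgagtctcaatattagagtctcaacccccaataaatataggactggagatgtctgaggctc
NFKBIA: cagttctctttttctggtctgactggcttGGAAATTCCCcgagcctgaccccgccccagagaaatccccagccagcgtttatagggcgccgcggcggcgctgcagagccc
TNFAIP3: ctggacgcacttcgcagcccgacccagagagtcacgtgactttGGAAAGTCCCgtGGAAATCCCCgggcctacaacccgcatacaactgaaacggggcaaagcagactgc

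The kB matches lay at similar distances from the starts. Counting back from the start, the consensus began at -79 in CXCL1 and CXCL3, at -78 in CXCL2, at -79 in CCL20, at -73 in IL6 and at -81 in NFKBIA. TNFAIP3 had matches at -67 and -55, counted from the start in its window, and CXCL8 had only the shorter motif, at -91. The stretches of CXCL1, CXCL2 and CXCL3 were 88.4% to 93.7% identical, and their coding sequences 90.8% to 94.4%, so the share of reads that counting gave to each of these genes is uncertain. CXCL8 was 53.7% to 55.9% identical to them in coding sequence. The TATA box letters TATAAA were in the windows of 4 genes (CXCL8, CCL20, IL1A and NFKBIA), beside 11.5% of all, and the AP-1 letters TGANTCA in those of 2 (CXCL8 and IL1A), beside 4.95%. The G-quadruplex motif, 4 runs of guanines with short loops, was in the windows of CXCL1, IL6 and TNFAIP3, 3 of 10, beside 25% of all windows. A match is a description of the letters and was not tested for binding.

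**Figure D1:**
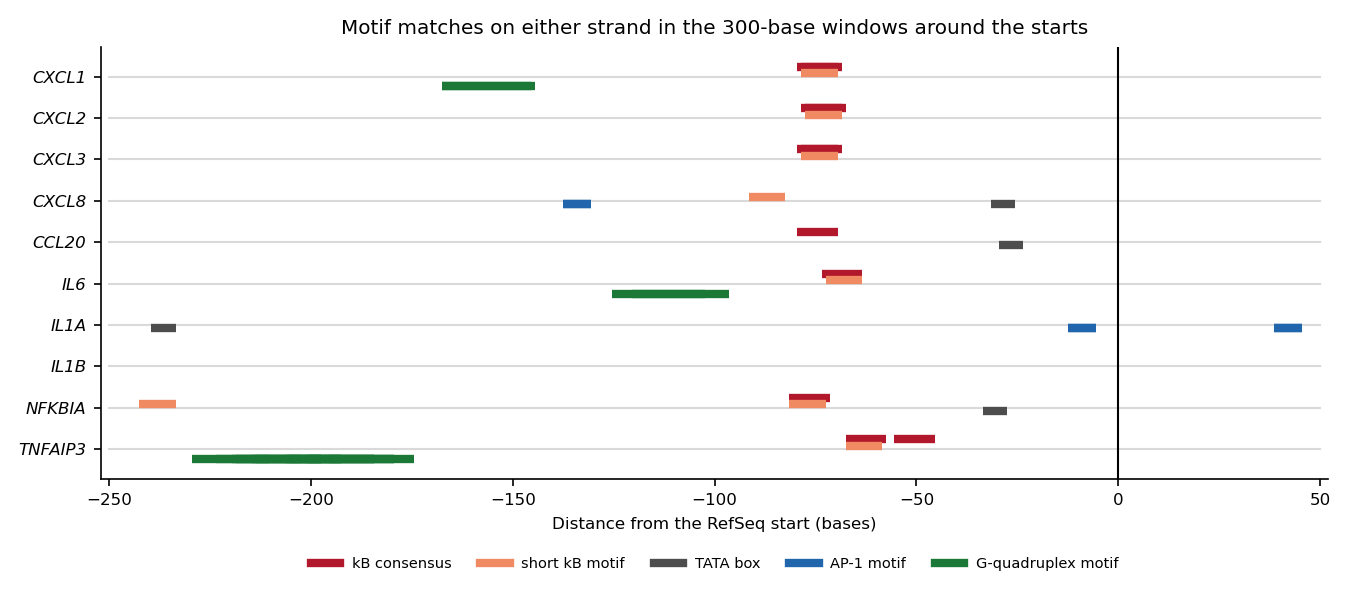
Motif matches in the promoter windows of the 10 genes, by distance in bases from the RefSeq start (x axis), 1 row per gene, with a colour for each motif. The kB matches of 8 genes sit between -91 and -46, apart from 1 short match of NFKBIA that begins at -242, and the IL1A and IL1B windows hold none.

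The libraries held 18699929 to 63882077 counts on genes. In the B table the untreated libraries were shallower (18699929 to 22375644) than the PDS libraries (33260167 to 43713947), and ribosomal RNA took 0.217% to 0.474% of their counts beside 0.0163% to 0.0369%, so these properties cannot be told apart from treatment. Levels are given as CPM, a gene's count relative to its library's total after TMM scaling within a table. Untreated PEO4 B replicate 2 stood above its group in CXCL1, CXCL8 and IL6, and results that change a call or move by over 1.5 times without it are given without it too. Of 10 ovarian carcinoma markers, 9 had enough counts to be tested in each table, among them PAX8, WT1, MUC16 and EPCAM. SOX17 had at most 20 counts, and FOLR1 was below 0.5 CPM in all PEO1 libraries. Levels of these markers and all marker sums are CPM of the unscaled library totals. Of 10 leukocyte markers, CD3E and MS4A1 were at 0 in all libraries and PTPRC had at most 2 counts. Their summed level lay between 1.46 and 7.40 CPM, with CD14 the largest part. In bulk RNA, fewer cells that express a gene and less RNA per cell cannot be told apart.

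Per kilobase of transcript, NFKBIA was the highest or next to highest of the 10 genes in each group of the B table. In untreated PEO1 BRCA+, mean levels per kilobase were 69.7 CPM for CXCL1, 68.4 for NFKBIA, 34.2 for CXCL8, 23.2 for TNFAIP3, 12.5 for IL6 and 10.6 for CXCL2. CXCL3 followed at 1.12, IL1A at 0.454, IL1B at 0.0662 and CCL20 at 0.0495. In untreated PEO4 B the order began with NFKBIA at 51.6 and TNFAIP3 at 5.72 CPM per kilobase. IL6 at 1.63, CXCL1 at 1.19, CXCL2 at 0.877 and CXCL8 at 0.433 CPM per kilobase came after them.

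**Figure D2:**
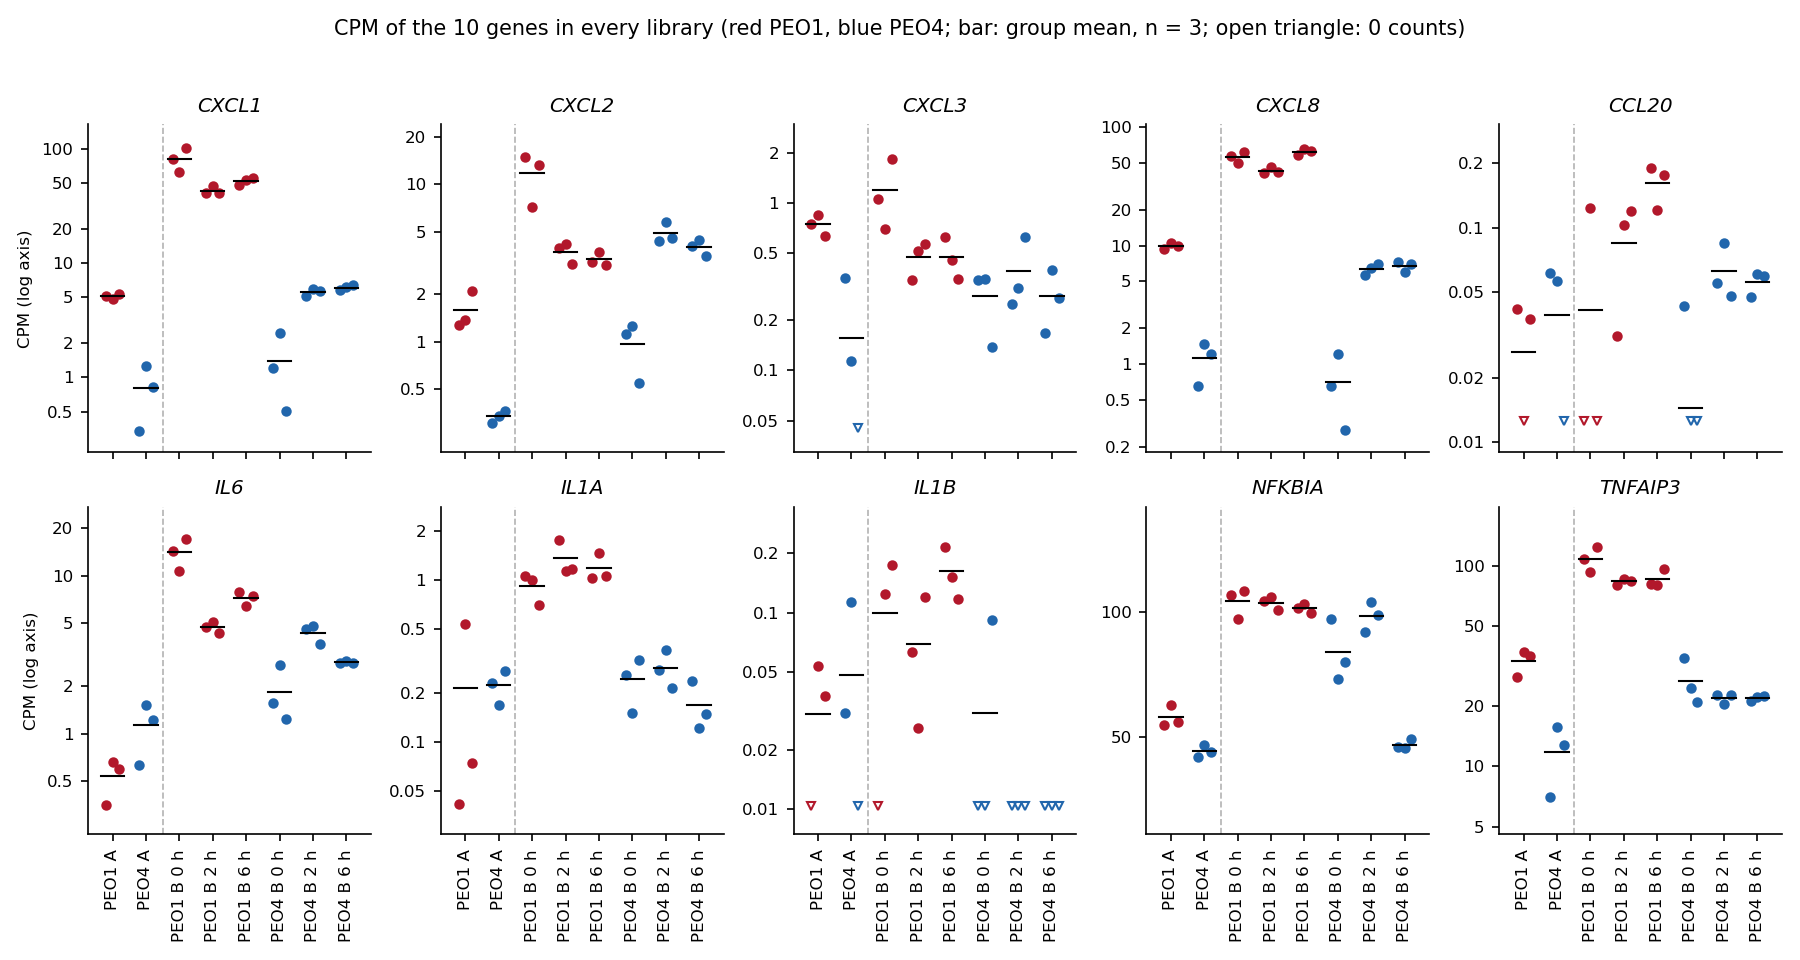
CPM of each of the 10 genes (y axis, log scale) in the 24 libraries (x axis, by group; PEO1 B is PEO1 BRCA+). Points are libraries, bars group means (n = 3) and open triangles libraries with 0 counts. CXCL1, CXCL2 and CXCL8 are lower in untreated PEO4 than in PEO1 in both tables, and in PEO4 B all PDS libraries lie above the untreated ones.

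The A table compared the resistant line with its BRCA2-deficient counterpart. In PEO4 A, 4 CXC chemokine genes and TNFAIP3 were lower than in PEO1 A, with fitted folds of 2.88 to 9.25, and IL6 was higher. Calls needed an absolute log2 fold change above 1 together with a p from edgeR's quasi-likelihood test that stayed under 0.05 once adjusted over all genes by the Benjamini-Hochberg method. Of the 10 genes, 8 passed the filter on low counts. CCL20 and IL1B did not. Of these 8, 5 were called lower and 1 higher, beside 13.1% and 12.6% of the 15882 genes tested.

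CXCL8 was at 9.28, 10.5 and 9.96 CPM in PEO1 A and at 0.647, 1.47 and 1.22 CPM in PEO4 A. CXCL1 was at 5.19, 4.80 and 5.35 CPM in PEO1 A and at 0.339, 1.25 and 0.826 CPM in PEO4 A. Every PEO4 A library lay below every PEO1 A library for both. The log2 fold change of PEO4 A over PEO1 A was -3.21 for CXCL8 (SE 0.251, adjusted p = 2.8e-07) and -2.75 for CXCL1 (SE 0.355, adjusted p = 3.46e-05). CXCL2 was at 1.28, 1.39 and 2.10 CPM against 0.308, 0.340 and 0.367 CPM, again without overlap, a log2 fold change of -2.24 (SE 0.356, adjusted p = 0.000134). CXCL3, at 0.753, 0.854 and 0.639 CPM against 0.354, 0.113 and 0, gave -2.01 (SE 0.647, adjusted p = 0.0172). This call was lost without PEO1 A replicate 2 (adjusted p = 0.0532) or PEO4 A replicate 2 (adjusted p = 0.0592), and without PEO4 A replicate 1 the value was -3.60.

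IL6 was the 1 gene of the 8 tested that was called higher in PEO4 A. It was at 0.355, 0.667 and 0.601 CPM in PEO1 A and at 0.632, 1.53 and 1.22 CPM in PEO4 A. The lowest PEO4 A library lay below the highest of PEO1 A. The log2 fold change was 1.04 (95% interval 0.12 to 1.96, adjusted p = 0.0493). Leaving out any 1 library other than PEO4 A replicate 1 ended the call, with log2 fold changes of 0.75 without PEO4 A replicate 2 (adjusted p = 0.197), 0.80 without PEO1 A replicate 1 (adjusted p = 0.158) and 0.97 without PEO4 A replicate 3 (adjusted p = 0.115). Without PEO1 A replicate 2 or 3 the adjusted p was 0.0608 or 0.0801, and DESeq2 gave 0.0596. IL6 overlaps IL6-AS1 in the annotation, and use of strand in counting is not given in the sources used here.

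Of the inhibitors, TNFAIP3 was lower in PEO4 A. It was at 28.04, 37.2 and 35.6 CPM in PEO1 A and at 7.04, 15.6 and 12.8 CPM in PEO4 A, without overlap. Its log2 fold change was -1.53 (SE 0.282, adjusted p = 0.00249). NFKBIA was at 53.3, 59.7 and 54.3 CPM against 44.7, 47.8 and 46.0 CPM. Its PEO4 A libraries also lay below those of PEO1 A, but the log2 fold change of -0.27 (adjusted p = 0.00836) was under the fold threshold. IL1A was at 0.0418, 0.534 and 0.0751 CPM in PEO1 A and at 0.231, 0.170 and 0.275 CPM in PEO4 A. A single PEO1 A library held most of its counts, and the groups overlapped (log2 fold change 0.17, 95% interval -1.57 to 1.91). The median log2 fold change of the 8 genes was -1.77, beside -0.01 over all genes tested. Summed leukocyte markers were at 5.77 to 6.39 CPM in PEO1 A and 1.46 to 2.09 CPM in PEO4 A, with CD14 the largest part, and summed fibroblast markers at 379 to 426 and 81.3 to 109.9 CPM, mostly THY1. Their part in these differences was not tested.

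The B table asked the same of the lines with BRCA2 function in both. In untreated PEO4 B, 7 of the 8 tested genes were called lower than in untreated PEO1 BRCA+ and none higher, beside 12.6% and 12.2% of the 17020 genes tested. CXCL8 and CXCL1 were lower by fitted folds of 80.1 and 59.8, CXCL2 by 11.99 and IL6 by 7.72. CXCL3, TNFAIP3 and IL1A were lower by fitted folds of 3.66 to 4.26. The median log2 fold change of the 8 was -2.52, beside -0.0011 over all genes tested.

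CXCL8 was at 56.7, 49.7 and 61.9 CPM in untreated PEO1 BRCA+ and at 0.649, 1.21 and 0.276 CPM in untreated PEO4 B. CXCL1 was at 80.7, 62.5 and 102 CPM and at 1.21, 2.46 and 0.507 CPM. The lines were far apart in every library, and replicate 2 was the highest of the PEO4 B libraries for both. The log2 fold change of PEO4 B over PEO1 BRCA+ was -6.32 for CXCL8 (SE 0.190, adjusted p = 1.41e-16) and -5.90 for CXCL1 (SE 0.276, adjusted p = 1.18e-10). Without PEO4 B replicate 2, CXCL1 was at -6.55. CXCL2 was at 14.9, 7.19 and 13.2 CPM in PEO1 BRCA+ and at 1.13, 1.26 and 0.553 CPM in PEO4 B (log2 fold change -3.58, SE 0.284, adjusted p = 9.01e-10). CXCL3 was at 1.05, 0.702 and 1.84 CPM and at 0.346, 0.351 and 0.138 CPM (log2 fold change -2.09, SE 0.469, adjusted p = 0.00035). Neither gene's libraries overlapped between the lines.

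IL6 was at 14.3, 10.8 and 17.1 CPM in untreated PEO1 BRCA+ and at 1.56, 2.71 and 1.24 CPM in untreated PEO4 B. Here every PEO4 B library was the lower one, and the log2 fold change was -2.95 (SE 0.203, adjusted p = 6.42e-12). In the A table the sign was the opposite. The tables were scaled separately, so the difference between them was not tested, and the levels are only set side by side: mean IL6 was 0.541 CPM in PEO1 A and 14.1 CPM in PEO1 BRCA+, beside 1.13 CPM in PEO4 A and 1.84 CPM in PEO4 B. The same side-by-side reading for CXCL1 gave 5.11 and 81.8 CPM in PEO1 A and PEO1 BRCA+, beside 0.804 and 1.39 CPM in PEO4 A and PEO4 B. IL1A was at 1.05, 0.991 and 0.702 CPM in PEO1 BRCA+ and at 0.260, 0.151 and 0.322 CPM in PEO4 B. The groups did not overlap, at a log2 fold change of -1.87 (SE 0.398, adjusted p = 0.000195).

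TNFAIP3 was at 108, 93.5 and 124 CPM in untreated PEO1 BRCA+ and at 34.6, 24.6 and 20.9 CPM in untreated PEO4 B, a log2 fold change of -2.02 (SE 0.145, adjusted p = 6.18e-09). Its libraries did not overlap in either table. NFKBIA was at 111, 96.4 and 113 CPM and at 96.4, 68.9 and 75.8 CPM. The highest PEO4 B library just reached the lowest of PEO1 BRCA+, and the log2 fold change of -0.40 (SE 0.090, adjusted p = 0.00046) was under the fold threshold. Beside these differences, summed leukocyte markers were at 6.06 to 7.37 CPM in PEO1 BRCA+ and 2.11 to 3.53 CPM in PEO4 B, and PTPRC was at 0 in all 6 libraries.

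**Figure D3:**
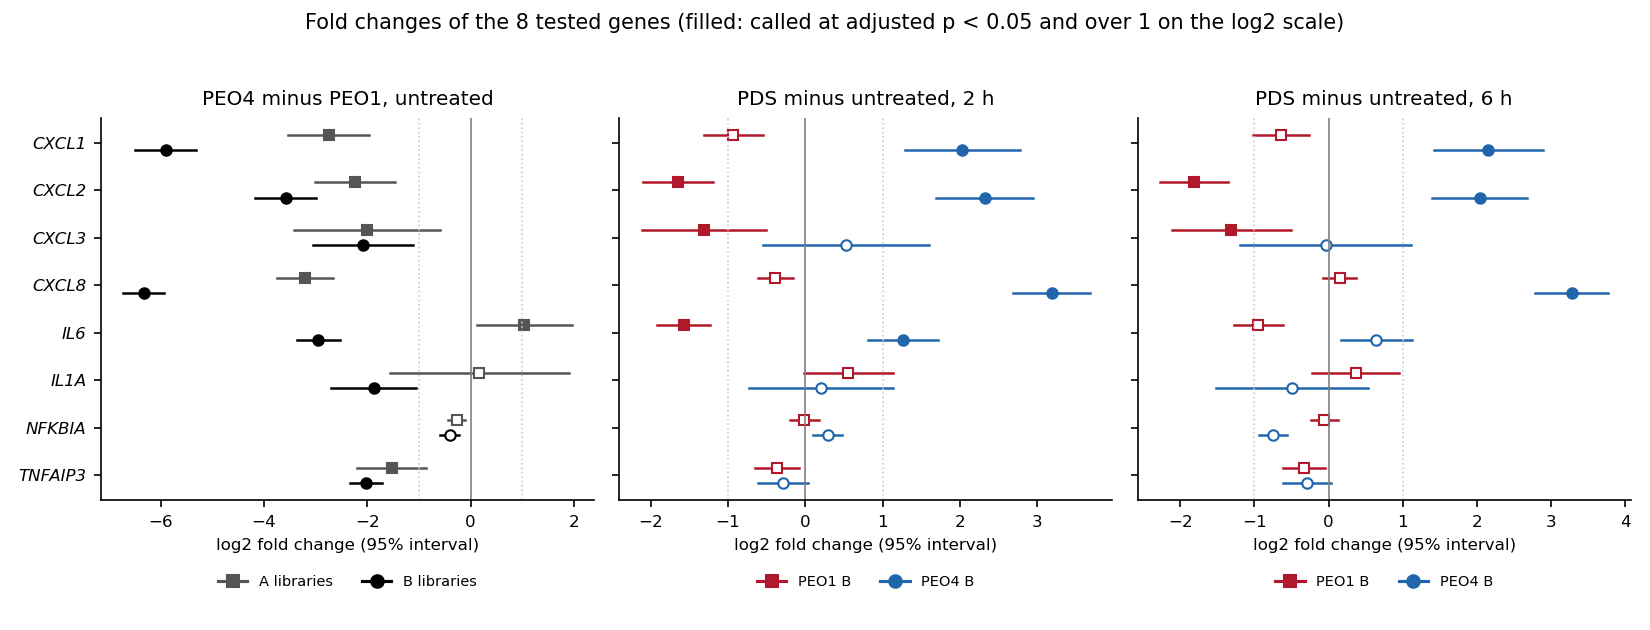
Log2 fold changes (x axis) of the 8 tested genes (y axis) with 95% intervals from the edgeR fit, for PEO4 minus PEO1 untreated in both tables and for PDS minus untreated in PEO1 B (PEO1 BRCA+) and PEO4 B at 2 and 6 h. Filled symbols passed both thresholds, and dotted lines mark -1 and 1. After PDS, CXCL1, CXCL2 and IL6 lie left of 0 in PEO1 BRCA+ and right of 0 in PEO4 B.

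PDS was given to ask how each line responds to a G-quadruplex ligand. In PEO1 BRCA+, CXCL2, CXCL3 and IL6 fell within 2 h to 31.8%, 39.7% and 33.5% of their untreated mean CPM. At 6 h CXCL2 and CXCL3 were at 28.4% and 39.7%. None of the 8 tested genes was called higher. At 2 h 3 of the 8 tested genes were called lower and 0 higher, beside 6.39% and 1.18% of the 17020 genes tested. At 6 h these were 2 and 0, beside 6.83% and 1.29%. At both times 0 of the 8 had a positive log2 fold change with an unadjusted p under 0.05, and DESeq2 also called 0 higher.

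CXCL2 stood at 14.9, 7.19 and 13.2 CPM untreated, at 3.97, 4.16 and 3.10 CPM after 2 h and at 3.20, 3.73 and 3.08 CPM after 6 h in PEO1 BRCA+. All PDS libraries lay below all untreated ones. The log2 fold change was -1.64 at 2 h (SE 0.216, adjusted p = 3.23e-06) and -1.81 at 6 h (SE 0.219, adjusted p = 1.05e-06). CXCL3 went from 1.05, 0.702 and 1.84 CPM to 0.346, 0.517 and 0.567 CPM at 2 h and 0.624, 0.455 and 0.352 CPM at 6 h, without overlap with the untreated group. It was called at both times (log2 fold change -1.31, adjusted p = 0.0064 and 0.00628), but without untreated replicate 3 the values were -0.85 at both, with adjusted p = 0.113 and 0.112. IL6 was at 14.3, 10.8 and 17.1 CPM untreated, at 4.72, 5.07 and 4.32 CPM after 2 h and at 7.92, 6.396 and 7.48 CPM after 6 h. The 3 groups of IL6 did not overlap. Its log2 fold change was -1.57 at 2 h (SE 0.166, adjusted p = 4.62e-08) and -0.95 at 6 h (SE 0.160, adjusted p = 2.66e-05), the latter just under the fold threshold and past it without untreated replicate 2 (-1.10) or 6 h replicate 1 (-1.01).

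CXCL1 and CXCL8 stayed high in PEO1 BRCA+ throughout. CXCL1 was at 41.0, 46.7 and 41.0 CPM after 2 h and at 48.6, 53.0 and 55.8 CPM after 6 h, below each untreated library. Its log2 fold changes of -0.93 at 2 h (adjusted p = 0.000505) and -0.64 at 6 h (adjusted p = 0.0067) did not pass the fold threshold. The value at 2 h did pass it under library totals (-1.08), under upper-quartile scaling (-1.01) and without untreated replicate 2 (-1.08). CXCL8 was at 40.9, 46.0 and 41.5 CPM after 2 h and at 58.1, 65.99 and 62.8 CPM after 6 h. Its 2 h libraries lay below the untreated ones (log2 fold change -0.39, adjusted p = 0.00481), and its 6 h libraries overlapped them (0.15, 95% interval -0.07 to 0.37).

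IL1A in PEO1 BRCA+ was at 1.76, 1.14 and 1.16 CPM after 2 h and 1.03, 1.46 and 1.06 CPM after 6 h, beside 1.05, 0.991 and 0.702 CPM untreated. All 2 h libraries were above the untreated ones, but the log2 fold changes were 0.56 (95% interval -0.02 to 1.13) and 0.36 (-0.22 to 0.95). NFKBIA was at 107, 109 and 102 CPM and at 103, 105 and 99.8 CPM. These values overlapped the untreated ones, with log2 fold changes of -0.01 (95% interval -0.20 to 0.17) and -0.06 (-0.24 to 0.13). TNFAIP3 was at 80.6, 86.6 and 84.0 CPM after 2 h and at 81.1, 80.2 and 96.4 CPM after 6 h. Its log2 fold changes were -0.37 (adjusted p = 0.0287) and -0.34 (adjusted p = 0.0453), under the fold threshold, and at 6 h the groups overlapped. Between 2 and 6 h none of the 8 was called in either direction, beside 0.0705% of genes higher and 0.0999% lower. DESeq2 also called 0, and 2 of the 8 had an unadjusted p under 0.05. CXCL8 and IL6 were at higher levels in every 6 h library than in any 2 h library, by log2 fold changes of 0.54 (adjusted p = 0.00335) and 0.63 (adjusted p = 0.0241).

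In PEO4 B, CXCL1, CXCL2 and CXCL8 were higher at both times after PDS, and CXCL3 was not called. CXCL8 rose by a fitted fold of 9.08 at 2 h and 9.69 at 6 h, CXCL2 by 4.99 and 4.11, and CXCL1 by 4.07 and 4.44. IL6 rose by 2.39 at 2 h. Of the 8 tested genes, 4 were called higher and 0 lower at 2 h, beside 6.4% and 11% of the 17020 genes tested. At 6 h 3 were called higher and 0 lower, beside 6.26% and 16.3%. The median log2 fold change of the 8 was 0.89 at 2 h and 0.30 at 6 h, beside 0 and -0.03 over all genes tested. DESeq2 called 0 lower at either time, and NFKBIA alone had a negative log2 fold change with an unadjusted p under 0.05, at 6 h.

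CXCL8 in PEO4 B was at 0.649, 1.21 and 0.276 CPM untreated, at 5.61, 6.45 and 6.96 CPM after 2 h and at 7.30, 5.98 and 7.003 CPM after 6 h. Each PDS library was above each untreated one, and the PDS groups overlapped each other. The log2 fold change was 3.18 at 2 h (SE 0.236, adjusted p = 4.28e-10) and 3.28 at 6 h (SE 0.235, adjusted p = 1.68e-10). CXCL1 went from 1.21, 2.46 and 0.507 CPM to 5.11, 5.89 and 5.69 CPM at 2 h and 5.77, 6.10 and 6.37 CPM at 6 h. Its log2 fold change was 2.03 at 2 h (SE 0.344, adjusted p = 0.000136) and 2.15 at 6 h (SE 0.341, adjusted p = 6.14e-05). Without untreated replicate 2, the library with the most CXCL1, these were 2.68 and 2.81. CXCL2 went from 1.13, 1.26 and 0.553 CPM to 4.36, 5.75 and 4.56 CPM at 2 h and 4.05, 4.45 and 3.53 CPM at 6 h, with log2 fold changes of 2.32 (SE 0.299, adjusted p = 1.26e-06) and 2.04 (SE 0.306, adjusted p = 6.91e-06). No untreated library of these chemokines reached a PDS library.

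CXCL3 was not called in PEO4 B. It was at 0.346, 0.351 and 0.138 CPM untreated, at 0.250, 0.311 and 0.624 CPM after 2 h and at 0.167, 0.397 and 0.269 CPM after 6 h. The groups overlapped, with log2 fold changes of 0.53 (95% interval -0.54 to 1.598) and -0.04 (-1.19 to 1.11) from 3 to 26 counts a library. These intervals are wide, and a rise of the size of that of CXCL2 lies outside both.

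IL6 in PEO4 B was at 1.56, 2.71 and 1.24 CPM untreated, at 4.58, 4.84 and 3.67 CPM after 2 h and at 2.81, 2.90 and 2.81 CPM after 6 h. All PDS libraries were above the untreated ones, and the 6 h libraries lay below the 2 h libraries. The log2 fold change was 1.26 at 2 h (SE 0.217, adjusted p = 2.2e-05) and 0.64 at 6 h (SE 0.229, adjusted p = 0.0156). The 6 h value was under the fold threshold, and without untreated replicate 2 it was 1.02 and called. From 2 to 6 h the log2 fold change was -0.61 (adjusted p = 0.00636). IL1A was at 0.278, 0.368 and 0.216 CPM after 2 h and 0.238, 0.122 and 0.150 CPM after 6 h, overlapping the untreated 0.260, 0.151 and 0.322 CPM. Its log2 fold changes were 0.20 (95% interval -0.73 to 1.13) and -0.49 (-1.51 to 0.54).

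NFKBIA was the 1 gene of the 8 tested that passed both thresholds between 2 and 6 h in PEO4 B. It was at 96.4, 68.9 and 75.8 CPM untreated, at 89.9, 106 and 98.8 CPM after 2 h and at 47.3, 46.9 and 49.4 CPM after 6 h. The 6 h libraries lay below all others of the line. From 2 to 6 h the log2 fold change was -1.04 (SE 0.090, adjusted p = 5.22e-09), so 1 of 8 genes was called lower and 0 higher, beside 9.71% and 2.27% of the genes tested. Without 2 h replicate 2 it was -0.98 and under the fold threshold. Against untreated cells it was 0.29 at 2 h (adjusted p = 0.00761) and -0.75 at 6 h (adjusted p = 2.77e-07), both under the threshold. TNFAIP3 was at 34.6, 24.6 and 20.9 CPM untreated, at 22.7, 20.4 and 22.6 CPM after 2 h and at 21.1, 22.1 and 22.5 CPM after 6 h. It overlapped throughout, with log2 fold changes of -0.29 at both times (95% intervals -0.61 to 0.03).

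Genes listed as markers of other cell types also changed in PEO4 B, which is a cultured carcinoma line. The summed leukocyte markers were at 2.11 to 3.53 CPM untreated, 5.93 to 7.18 CPM at 2 h and 1.97 to 2.29 CPM at 6 h. Of the 3 of 10 leukocyte markers with enough counts for a test, CD14 was called higher and ITGAM lower at 2 h, and PTPRC was at 0 counts in all PEO4 B libraries. Mean CXCL1 and CXCL8 were at 5.56 and 6.34 CPM at 2 h and at 6.08 and 6.76 CPM at 6 h. The fibroblast marker sum was 43.9 to 54.9, 67.8 to 101 and 40.4 to 46.2 CPM, and that of endothelial markers 1.71 to 3.01, 0.533 to 1.01 and 0.176 to 0.1999 CPM. Of the fibroblast markers THY1 was called higher at both times while COL1A1 and COL3A1 were called lower. The part of these markers in the chemokine values at 2 and 6 h was not tested.

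The responses of the lines were compared by the interaction, the log2 response of PEO4 B minus that of PEO1 BRCA+. At 2 h 5 of the 8 genes were called, all with the higher response in PEO4 B, beside 6.1% of genes called higher and 4.92% lower. At 6 h 4 were called, again all higher, beside 5.42% and 9.34%. CXCL2 differed most, by 3.96 at 2 h (SE 0.367, adjusted p = 7.97e-08) and 3.85 at 6 h (SE 0.373, adjusted p = 1e-07). CXCL8 differed by 3.57 (SE 0.263, adjusted p = 2.58e-09) and 3.12 (SE 0.267, adjusted p = 1.44e-08), and CXCL1 by 2.96 (SE 0.382, adjusted p = 3.67e-05) and 2.79 (SE 0.382, adjusted p = 4.16e-05). Without untreated PEO4 B replicate 2 the values of CXCL1 were 3.59 and 3.44. For IL6 the difference was 2.83 at 2 h (SE 0.272, adjusted p = 2.36e-08) and 1.59 at 6 h (SE 0.278, adjusted p = 5.56e-05).

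CXCL3 was called at 2 h only, by 1.84 (95% interval 0.51 to 3.17, adjusted p = 0.027). That call was lost without PEO1 BRCA+ untreated replicate 3 (1.38, adjusted p = 0.105), PEO1 BRCA+ 2 h replicate 1 (1.66, adjusted p = 0.0607), PEO4 B untreated replicate 3 (1.52, adjusted p = 0.076) or PEO4 B 2 h replicate 3 (1.32, adjusted p = 0.144). At 6 h its difference was 1.27 (-0.13 to 2.68, adjusted p = 0.129). For NFKBIA the response of PEO4 B was the lower one at 6 h, by -0.69 (adjusted p = 0.000139), under the fold threshold, beside 0.30 (adjusted p = 0.0671) at 2 h. TNFAIP3 differed by 0.08 (95% interval -0.34 to 0.51) at 2 h and 0.05 (-0.38 to 0.48) at 6 h. IL1A differed by -0.36 (-1.48 to 0.77) and -0.85 (-2.04 to 0.33). The comparisons of each line share their untreated libraries across times.

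The gap between the lines was narrower after PDS for 5 genes. Mean CXCL8 was 79.0 times as high in PEO1 BRCA+ as in PEO4 B untreated, 6.75 times at 2 h and 9.22 times at 6 h. For CXCL1 the ratio was 58.7, 7.71 and 8.63. Without untreated PEO4 B replicate 2 the untreated ratio was 121 for CXCL8 and 95.2 for CXCL1. CXCL2 changed order, from 12.04 untreated to 0.766 and 0.831, with every PEO4 B library above every PEO1 BRCA+ library at 2 h and overlap at 6 h. IL6 went from 7.65 to 1.08 and 2.56, and CXCL3 from 4.31 to 1.21 and 1.72. TNFAIP3 kept a ratio of 4.06, 3.83 and 3.92. NFKBIA was at 1.33, 1.08 and 2.14 and IL1A at 3.75, 4.72 and 6.94. These ratios of means were not tested apart from the interaction above.

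**Figure D4:**
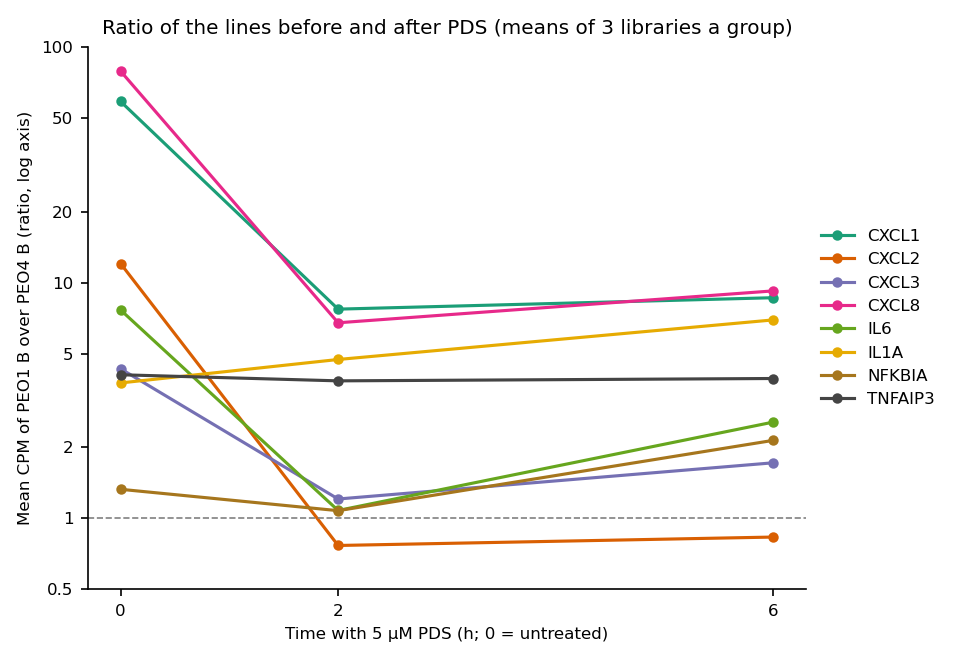
Ratio of mean CPM in PEO1 B (PEO1 BRCA+) to that in PEO4 B (y axis, log scale; 3 libraries a group, no error drawn) against hours with 5 µM PDS (x axis), 1 line per tested gene, with a dashed line at 1. CXCL8 and CXCL1 drop from 79.0 and 58.7 (121 and 95.2 without untreated PEO4 B replicate 2, not drawn) to 6.75 and 7.71 at 2 h, CXCL2 passes below 1, and TNFAIP3 stays between 3.83 and 4.06.

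CCL20 and IL1B did not pass the filter on low counts in either table. CCL20 had 0 to 4 counts in the A libraries. In PEO1 BRCA+ it had 0, 3 and 0 counts untreated, 1, 4 and 4 after 2 h and 7, 4 and 6 after 6 h. Its counts at 6 h were above the untreated ones, but the 6 h libraries were deeper, and in CPM the groups overlapped (0.121 to 0.190 beside 0 to 0.124 CPM). In PEO4 B it had 1, 0 and 0 counts untreated, 2, 3 and 2 after 2 h and 2 in each library after 6 h. IL1B had 0 to 4 counts in the A libraries, 0, 3 and 4 counts in untreated PEO1 BRCA+, 2, 1 and 4 after 2 h and 8, 5 and 4 after 6 h. In PEO4 B it had 2 counts in 1 untreated library and 0 in all 6 PDS libraries, where a count of 0 allows up to 3 counts, or 0.0715 to 0.0915 CPM. No change of these genes could be tested at this depth, and such limits cover counting error only.

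Of the 5 genes that encode NF-kB subunits, NFKB1 was called higher in PEO4 A (log2 fold change 1.005, adjusted p = 3.91e-07) and none was called between the untreated B lines, where NFKB1 was at 0.97 and RELA at -0.30. In PEO1 BRCA+ none was called after PDS at either time. In PEO4 B NFKB1 fell at 2 h, from 113 to 45.4 CPM (log2 fold change -1.31, adjusted p = 1.45e-08), and REL fell at 6 h, from 25.9 to 11.5 CPM (-1.17, adjusted p = 1.12e-11). RELA was at 156, 151 and 160 CPM untreated, at 2 h and at 6 h. RELB gave -0.26 and -0.53 and NFKB2 -0.18 and -0.24, none of them called. The interaction was called lower for NFKB1 at both times (-1.43 and -1.18). Over all genes tested, 12.6% were called higher in PEO4 A. Between the untreated B lines 12.2% were called higher and 12.6% lower in PEO4 B. In PEO1 BRCA+ 1.18% were called higher and 6.39% lower at 2 h, and 1.29% and 6.83% at 6 h. In PEO4 B 11% were called lower at 2 h and 16.3% at 6 h. The interaction was called lower for 4.92% of genes at 2 h and 9.34% at 6 h.

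Of 18 upstream kinases and adaptors, none was called after PDS against untreated cells in either line. Of all genes, 6.4% were called higher and 11% lower in PEO4 B at 2 h, and 6.26% and 16.3% at 6 h. In PEO1 BRCA+ these shares were 1.18% and 6.39% at 2 h and 1.29% and 6.83% at 6 h. IRAK2, a kinase of IL-1 and toll-like receptor signalling, was called lower in PEO4 in both tables (-1.14 in A and -2.75 in B) and had the higher response in PEO4 B at 2 h (interaction 1.25, adjusted p = 0.000879). Of 14 other inhibitors and feedback genes, 2 were called lower in PEO4 in both tables, TNFAIP8 (-2.34 and -2.13) and BIRC3 (-1.14 and -2.11). Of all genes tested, 13.1% were called lower in PEO4 A and 12.6% in untreated PEO4 B. In PEO1 BRCA+ NFKBID (-1.10) and NFKBIZ (-1.03) fell at 2 h and NFKBIZ (-1.39) at 6 h. In PEO4 B BCL3 fell at both times (-1.63 and -1.94), TRAF1 at 2 h (-1.22), and TNFAIP8 rose at 2 h (1.07).

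Other cytokine and chemokine genes linked to NF-kB were mostly low, with 11 of 20 tested in the A table and 10 in the B table. CCL2, a monocyte attractant, was at 0.799 and 0.905 CPM in PEO1 A and untreated PEO1 BRCA+ and at 0 in all untreated PEO4 libraries. CSF1, a macrophage growth factor, was lower in PEO4 in both tables (-5.67 and -3.91). CXCL11 was called higher in PEO4 A (3.96). Between the untreated lines 1 of 11 was called higher and 5 lower in PEO4 A, beside 12.6% and 13.1% of all genes. In untreated PEO4 B 0 of 10 were called higher and 5 lower, beside 12.2% and 12.6%. CXCL5, which signals through CXCR2 like CXCL1, was at 0.178 CPM untreated, 0 at 2 h and 0.0297 at 6 h in PEO1 BRCA+, and at 0, 0.189 and 0.824 CPM in PEO4 B. It was called lower after PDS in PEO1 BRCA+ and higher in PEO4 B at both times, although no fold can be given against 0. In untreated PEO1 BRCA+ 3 counts were worth 0.124 to 0.144 CPM, and in PEO4 B at 2 h 0.072 to 0.0849 CPM. The fall of CXCL5 in PEO1 BRCA+ and its rise at 2 h in PEO4 B therefore rest on few counts. CX3CL1, a membrane-bound chemokine, rose in PEO4 B (2.17 and 1.70) and CXCL16 fell (-1.03 and -1.46). Over the whole list, 0 of 10 were called higher and 3 lower in PEO1 BRCA+ after 2 h, beside 1.18% and 6.39% of all genes. In PEO4 B 3 were called higher and 1 lower at 2 h, beside 6.4% and 11%. At 6 h the counts were 0 and 1 in PEO1 BRCA+, beside 1.29% and 6.83%. They were 3 and 2 in PEO4 B, beside 6.26% and 16.3%.

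Of 14 other NF-kB target genes, 13 were tested in the B table. In PEO4 B 2 were called higher and 1 lower at 2 h, and 2 higher and 6 lower at 6 h, at a median log2 fold change of 0.04 and -0.75, beside 6.4% and 11% of all genes tested at 2 h and 6.26% and 16.3% at 6 h. MMP9, a matrix protease, rose in both lines at both times (1.54 and 1.62 in PEO1 BRCA+, 1.51 and 1.30 in PEO4 B). SAA1, an acute phase protein, fell in PEO1 BRCA+ (-2.14 and -2.55) and at 6 h in PEO4 B (-1.36). BCL2A1, an apoptosis inhibitor, rose in PEO4 B at 2 h (1.34) and fell at 6 h (-2.51), at mean levels of 0.124, 0.319 and 0.0179 CPM. In its untreated libraries 3 counts were worth 0.130 to 0.151 CPM, so these folds rest on very few counts. Between the untreated lines, 5 of the 12 tested were called higher and 1 lower in PEO4 A, beside 12.6% and 13.1% of all genes. In untreated PEO4 B 3 of 13 were called higher and 4 lower, beside 12.2% and 12.6%. SAA1 and LCN2 were called higher in PEO4 in both tables (3.14 and 2.38 in A). SOD2, a mitochondrial antioxidant enzyme, was lower in PEO4 in both tables (-1.18 and -1.6).

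For the receptors, CXCR2 was at 0 CPM in all libraries and CXCR1 and CCR6 had group means of at most 0.0889 CPM. IL6R rose in PEO1 BRCA+ (1.53 and 1.64) and in PEO4 B (1.03 and 1.89), and IL6ST, the signalling subunit shared by IL-6 family receptors, was at 187 CPM in untreated PEO1 BRCA+ and 103 CPM in untreated PEO4 B (-0.86, not called). IL1R1 was lower in PEO4 in both tables (-1.31 and -2.55), and so was the decoy receptor IL1R2 (-1.5 and -4.43), which fell further in PEO4 B after PDS (-1.71 and -1.52). IL1RN, the receptor antagonist, fell in PEO4 B from 5.33 to 0.302 CPM at 2 h and 0.158 CPM at 6 h (-4.14, adjusted p = 9.28e-11, and -4.98, adjusted p = 1.65e-11) and was at 2.29, 2.29 and 2.71 CPM in PEO1 BRCA+. Of 10 TNF and toll-like receptors, 6 were called higher and 1 lower in PEO4 A than in PEO1 A, beside 12.6% and 13.1% of all genes. Between the untreated B lines 4 were called higher in PEO4 B and 0 lower, beside 12.2% and 12.6%. CD40, TLR3, TLR5 and TLR1 were called higher in both tables. After PDS 3 of the 10 were called higher and 1 lower in PEO4 B at 2 h, beside 6.4% and 11%. TLR4 (3.33, from 0.0809 to 0.821 CPM) and TLR6 (1.6) were the largest rises. At 6 h 1 was called higher, TLR6 (1.04), and 3 lower, beside 6.26% and 16.3%. TLR5 (-3.55, from 0.585 to 0.0484 CPM) and TLR3 (-2.57) led these falls. TLR4 untreated and TLR5 at 6 h were below the level of 3 counts. Between these times 6 were called lower and 0 higher, beside 9.71% and 2.27%. In PEO1 BRCA+ 0 were called higher and 2 lower at both times, TLR1 (-1.38 and -1.33) and TLR2 (-1.37 and -1.70). The shares of all genes there were 1.18% and 6.39% at 2 h and 1.29% and 6.83% at 6 h.

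Among 10 genes of IL-1 processing, NLRP3, an inflammasome sensor, rose in PEO4 B (2.48 and 2.41), and CASP1, the protease that cleaves the IL-1 beta precursor, fell (-1.48 and -2.85). Neither was called in PEO1 BRCA+. Between the untreated lines, 3 of the 8 tested were called higher in PEO4 A (CASP1, CASP8 and CASP4), beside 12.6% of all genes. The 3 called lower there were NLRP1, PYCARD and NLRP3, beside 13.1%. In untreated PEO4 B 1 was called higher (CASP4), and NLRP1, NLRP3 and PYCARD were again called lower, beside 12.2% and 12.6%. A list of 8 genes for proteins that regulate mRNA stability was considered because short-lived cytokine mRNAs carry AU-rich elements. Between the untreated lines ZFP36L2 (-1.81 and -1.17) and HNRNPD (-1.11 and -1.05) were lower in PEO4 in both tables. In PEO4 B after PDS ZFP36L1 (-1.67), ZFP36 (-1.38) and ZFP36L2 (-1.05) fell at 2 h, and ZFP36L1 (-1.52) and ZFP36 (-1.13) at 6 h. None of the 8 was called in PEO1 BRCA+ after PDS, where ZFP36 was at -0.52 and -0.38. Of all genes, 6.39% were called lower there at 2 h and 6.83% at 6 h, beside 11% and 16.3% in PEO4 B. The interaction was called for ZFP36L1 alone at both times (-1.19 and -1.17). For ZFP36 it was -0.86 (adjusted p = 0.0494) and -0.75 (adjusted p = 0.0693), not past the fold threshold.

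The 3′ untranslated regions of all 10 genes held more AUUUA pentamers per kilobase than the median of 19229 protein-coding genes (GENCODE canonical transcripts), which was 1.53. The members' median was 7.48, with 14.1 per kilobase in IL6, 13.97 in CXCL2 and 10.4 in CXCL3 at the top and 2.51 in TNFAIP3 at the bottom. NFKBIA had 6.00 and CXCL8 7.19.

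CXCL8, CXCL1, CXCL3 and CXCL2 lie in 1 cluster on chromosome 4, at chr4:73740569-73743716, chr4:73869393-73871308, chr4:74036589-74038689 and chr4:74097040-74099195 (GRCh38.p14). IL1A (chr2:112773925-112784493) and IL1B (chr2:112829751-112836779) are neighbours on chromosome 2. CCL20 is at chr2:227813842-227817556, IL6 at chr7:22727200-22731998, NFKBIA at chr14:35401513-35404749 and TNFAIP3 at chr6:137866349-137883312. Of 27 neighbouring genes, 25 were in the tables and 15 were tested in the B table. In the chemokine cluster CXCL6, PPBP, PF4 and PF4V1 were too low to test, and CXCL5 is described above. RASSF6, beyond CXCL8, was lower in PEO4 in both tables (-1.72 and -2.99) and rose in PEO4 B (2.60 and 1.30). MTHFD2L, next to CXCL2, was lower in PEO4 B than in PEO1 BRCA+ (-1.6) and was at 0.37 and 0.74 after PDS in PEO4 B, not called. Of the EGF receptor ligands further along, EREG rose in PEO4 B at 2 h (1.38), where AREG was at 0.69 and not called. AREG was lower in untreated PEO4 B than in PEO1 BRCA+ (-3.71), where EREG was at -0.43 and not called. Over all 15, 4 were called higher and 3 lower in PEO4 B at 2 h, beside 6.4% and 11% of all genes. At 6 h these were 3 and 3, beside 6.26% and 16.3%. In PEO1 BRCA+ 1 was called higher and 2 lower at 2 h, beside 1.18% and 6.39%. At 6 h these were 2 and 2, beside 1.29% and 6.83%. IL6-AS1, which overlaps IL6, was lower in PEO4 B (-3.09) and fell in PEO1 BRCA+ (-1.97 and -1.38). WAKMAR2, which overlaps TNFAIP3, went the other way from TNFAIP3 between the lines (1.52 in A and 1.88 in B) and fell in PEO4 B (-1.97 and -1.31).

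Across the 18 B libraries, after each line's mean log2 CPM was subtracted, the pattern of CXCL8 was most like that of TRHDE among genes outside the 10 (Pearson r = 0.99). For CXCL1 it was NTNG1 (r = 0.96), for CXCL2 CA2 (r = 0.95), for IL6 BHLHE41 (r = 0.94) and for CXCL3 OGFRL1 (r = 0.77). NFKBIA was most like GADD45B (r = 0.97), TNFAIP3 like KLF2 (r = 0.89) and IL1A like CFAP53 (r = 0.83). Within the 10, CXCL1 and CXCL8 were the closest pair (r = 0.95), followed by CXCL1 and CXCL2 (r = 0.90) and CXCL2 and IL6 (r = 0.86). NFKBIA and TNFAIP3 had r between -0.28 and 0.25 with the CXC chemokines, other than TNFAIP3 with CXCL3 (r = 0.58). These 18 points share 6 conditions and their depths, so the values are descriptions without a test.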

How the data were processed

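RNA-seq gene counts of 24 libraries were analysed, 6 in the A table and 18 in the B table. The authors deposited raw counts per gene, and the submitters' processing notes name FastQC, fastp, STAR, featureCounts and hg38. The annotation and the use of strand in counting are not given in the sources used here. Of lines without readable counts, 2 in the A table and 1 in the B table were left out. Low counts, from 1 to 20, were even numbers in 68.6% to 74.0% of cases in the A libraries and 41.5% to 43.8% in the B libraries, so a fit with the A counts halved was added after seeing the data, as were ratios of means without each untreated B library. Groups came from the sample labels, and replicates are as labelled; nothing in the labels says that they were separate cultures, so p-values measure only the spread between these samples. Library totals were 18699929 to 63882077 counts.

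Each table was fitted separately in R 4.3.3 with edgeR 4.0.16 (TMM scaling, filterByExpr with a minimum count of 10, robust quasi-likelihood test, Benjamini-Hochberg adjustment over all genes tested). The fit of the B table held all 6 groups. Calls needed an adjusted p below 0.05 with a log2 fold change beyond 1 in either direction. Intervals are 95% intervals from the fit. DESeq2 1.42.0, other scalings and filters, the adjusted p alone, a fit of only the groups compared, a replicate block and leaving out each library were alternatives. The code was tested on simulated data.

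The 10 genes and the gene lists were chosen with earlier results of these data known. By rule the text names the 10 genes, RELA, NFKB1, NFKB2, RELB, REL, IL6ST and ZFP36, up to 2 called genes of each list in each direction and comparison, chromosomal neighbours, and the gene most like each of the 10; others are named as members of small counts or after their values were seen. Gene positions, overlaps, neighbours and promoter windows came from RefSeq (GRCh38.p14), and transcripts with their coding and untranslated regions from GENCODE.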

Additional observations from a re-analysis of the deposited data

Results flagged for a closer look

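These results are listed because the response to PDS differed between the B lines by a test of the difference itself, the interaction in edgeR's quasi-likelihood fit, given as the log2 response of PEO4 B minus that of PEO1 BRCA+. At 2 h the difference was 2.96 for CXCL1, 3.96 for CXCL2, 1.84 for CXCL3, 3.57 for CXCL8 and 2.83 for IL6. At 6 h it was 2.79 for CXCL1, 3.85 for CXCL2, 3.12 for CXCL8 and 1.59 for IL6. NFKBIA at 6 h differed the other way, by -0.69, with a smaller size than the fold threshold. The value of CXCL3 lost its call in 4 of the 12 fits that left out 1 library.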

How the results depend on the processing

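Of 1280 values recomputed for the 8 tested genes, 1242 kept their side of the threshold, 15 lost a call, 23 gained one and 0 changed sign while called. Direction was compared only for values called in the main fit. Values that were not called could change sign, as did that of IL1A between the A lines (-0.34 to 1.88 without 1 library). Under the adjusted p alone, the genes called went from 3 to 6 in PEO1 BRCA+ at 2 h, from 2 to 5 at 6 h and from 0 to 2 between 2 and 6 h, and in PEO4 B from 3 to 5 at 6 h and from 1 to 2 between 2 and 6 h. NFKBIA also gained a call between the A lines, between the untreated B lines and in PEO4 B at 2 h. It gained one in the interaction at 6 h as well, with the lower response in PEO4 B (-0.69). With a filter of at least 1 CPM in 3 libraries, 1 gene was called in PEO1 BRCA+ at 6 h, since CXCL3 was then not tested. Leaving out 1 library at a time gave 4 to 6 called genes between the A lines, 7 in each fit between the B lines, 2 to 4 in PEO1 BRCA+ at 2 h, 1 to 3 at 6 h and 0 between these times. In PEO4 B it gave 4 at 2 h, 3 to 4 at 6 h and 0 to 1 between these times, and for the interaction 4 to 5 at 2 h and 4 at 6 h. The calls that turned on 1 library were those of IL6 and CXCL3 in the A table, CXCL3, CXCL1 and IL6 in PEO1 BRCA+, IL6 and NFKBIA in PEO4 B, and CXCL3 in the interaction at 2 h, with values given beside them above. Library totals in place of TMM moved the all-gene median after PDS, on the log2 scale, by -0.128 to -0.16 against untreated cells, and upper-quartile scaling by -0.113 in PEO4 B at 6 h. With the replicate number as a block, all 80 values kept their call. Same-numbered libraries did not deviate together (r from -0.158 to 0.134 over 24 pairs, with 0 of 8 comparisons over 0.1 in every pair), so the numbers were not read as a pairing. Halving the counts of the A table changed none of the 7 values that could be recomputed. The low counts of CXCL3, IL1A, CCL20 and IL1B limit what could be shown for them.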
